A study of Drosophila melanogaster with 9 samples.

Results

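Messenger RNA of whole adult Drosophila melanogaster heads was compared between flies carrying kdm5[JmjC*], an allele described in the labels as a demethylase-inactive JmjC mutant, and wild-type flies, across every gene with a mean normalized count of at least 50. That rule took 9300 of the 17478 genes in the comparison. The heads came from untreated flies aged 3 to 5 days, with 3 libraries of JmjC*, 3 of kdm5[A512P] and 3 of wild type (WT). A512P is a missense allele of the same gene and is used here only where it shows how JmjC* stands apart. The labels give neither the sex of the flies nor how the alleles were made, nor whether replicate libraries trace back to separate fly collections. The p-values therefore measure only how far these libraries scatter, and that scatter may be technical. Values of single libraries were not used here, so the depth behind each value is unknown, and precision is given by the authors' standard error (SE) of each log2 fold change.

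KDM5 is a chromatin protein that binds near the starts of active genes. Its Jumonji C (JmjC) domain removes methyl groups from lysine 4 of histone H3, a mark that accompanies active promoters. The same protein carries other domains that read histone marks or contact DNA and partner proteins, so an allele that inactivates the enzyme leaves a protein that may still occupy chromatin. The comparison addresses which head transcripts differ when the enzymatic activity is lost.

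Whole heads hold brain, eyes, antennae, fat body, muscle, blood cells and the epidermis that carries the cuticle. All of the 4 neuronal, 4 photoreceptor, 5 glial, 4 fat body, 4 muscle, 5 blood cell and 3 antennal markers passed the minimum count, as did 1 of 4 gut markers, 0 of 4 testis markers and 0 of 5 ovary markers. Per kilobase of exon, the mean normalized count ran from 8176 to 476272 for photoreceptor markers, from 687 to 9338 for neuronal markers, from 0.32 to 17.2 for testis markers and from 0.75 to 9.02 for ovary markers in the authors' deposited table. Of the neuronal markers nSyb was lower at -0.24 ± 0.080, of the photoreceptor markers trp at -0.37 ± 0.075, and of the glial markers repo at -0.20 ± 0.080, Eaat1 at -0.48 ± 0.086 and Gs2 at -0.18 ± 0.070, on the log2 scale of the authors' deposited table. The glial marker moody was higher at 0.42 ± 0.082 there, and the other neuronal, photoreceptor and glial markers were not called. In tissue of mixed cell types, fewer cells of a type and less RNA per cell cannot be told apart. The kdm5 transcript itself, named lid in the authors' deposited table (FBgn0031759), had a log2 fold change of -0.11 ± 0.095 (SE, adjusted p = 0.431) in JmjC* over WT and was not called, which does not check the labels because the allele alters the protein.

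Loss of demethylase activity was accompanied by many small shifts and few large ones. Of 9292 members with an adjusted p, the authors' deposited table called 3026 at an adjusted p under 0.05, which is 32.6% of them, and 8 members had no adjusted p. JmjC* was higher for 1375 genes (14.8%) and lower for 1651 genes (17.8%). At an unadjusted p under 0.05 the count was 3940. Among called genes the fold change had a median of 1.35. Over all tested members the log2 fold change had a median of -0.0099 and an interquartile range from -0.20 to 0.17. Among the larger changes the balance was the other way round: 481 called genes were at least 1.5-fold higher in JmjC* (5.18% of members) and 336 were at least 1.5-fold lower (3.62%). At least 2-fold changes numbered 179 rises and 73 falls, and at least 4-fold changes 16 rises and 5 falls. No member had an SE above 0.231 in the authors' deposited table, and among genes below the minimum the SE was smaller the lower the count, as in fold changes shrunken towards 0, so changes of weakly expressed genes are understated.

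**Figure D1:**
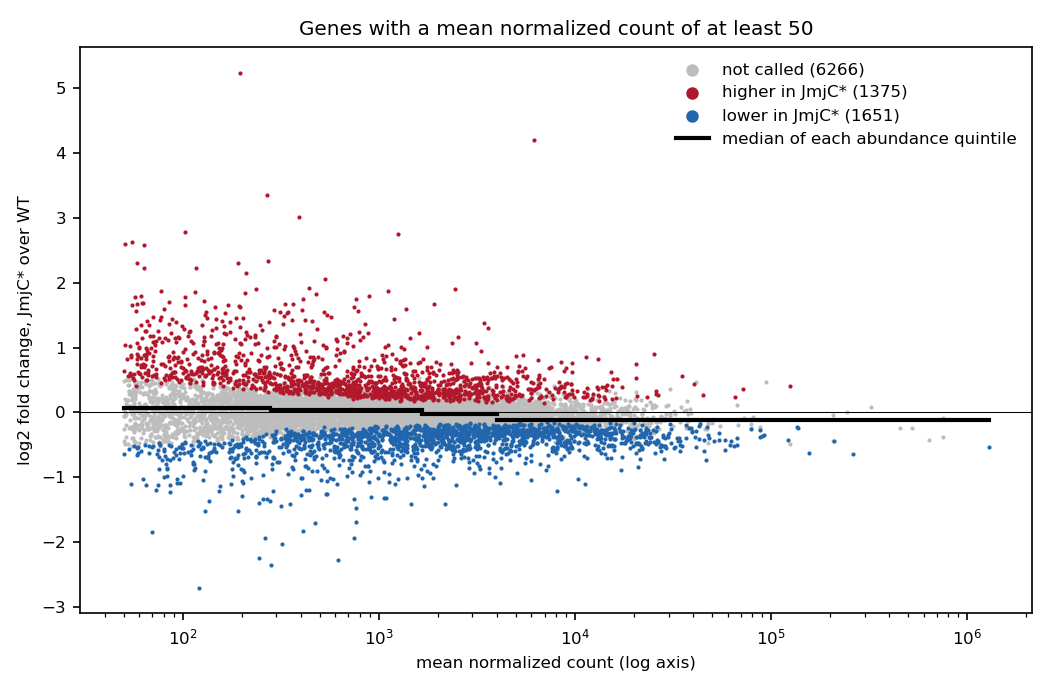
Each point is a gene, placed by its mean normalized count (x, log axis) and its log2 fold change of JmjC* over WT (y); red points were called higher (1375), blue points lower (1651) and grey points were not called (6266). The black bars, the medians of the abundance quintiles, step down with abundance, and the points farthest from 0 lie above it.

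The shares of rises and falls differed between abundance levels. In the quintile of members with the lowest counts 19.8% were higher and 9.79% lower in JmjC*, with a median log2 fold change of 0.06. In the quintile with the highest counts 8.12% were higher and 30.1% lower, with a median of -0.12. Genes lower in JmjC* were also longer: their median exon length was 2637 bases and their median span 5095 bases, against 2232 and 2927 bases for the genes that were higher and 2100 and 2787.5 bases for those not called. By chromosome arm the share of higher genes was 17.3% on X and between 13.3% and 14.9% on the other arms. The share of lower genes was 14.2% on X, 17.3% to 18.8% on the large autosomal arms and 30% on chromosome 4, where 27 of 90 members fell.

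Genes of the nervous system, the ribosome and immunity are the usual subjects of such a comparison and account for 543 tested members. Among neuronal genes 10 rose and 154 fell of 235, among ribosomal, nucleolar and translation genes 3 rose and 105 fell of 211, and among immune and blood cell genes 40 rose and 2 fell of 97. Outside these lists 8749 members remained, of which 1322 were higher (15.1%) and 1390 lower (15.9%) in JmjC*. They made up 96.1% of all rises and 84.2% of all falls, and the rest of the account is about them.

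**Figure D2:**
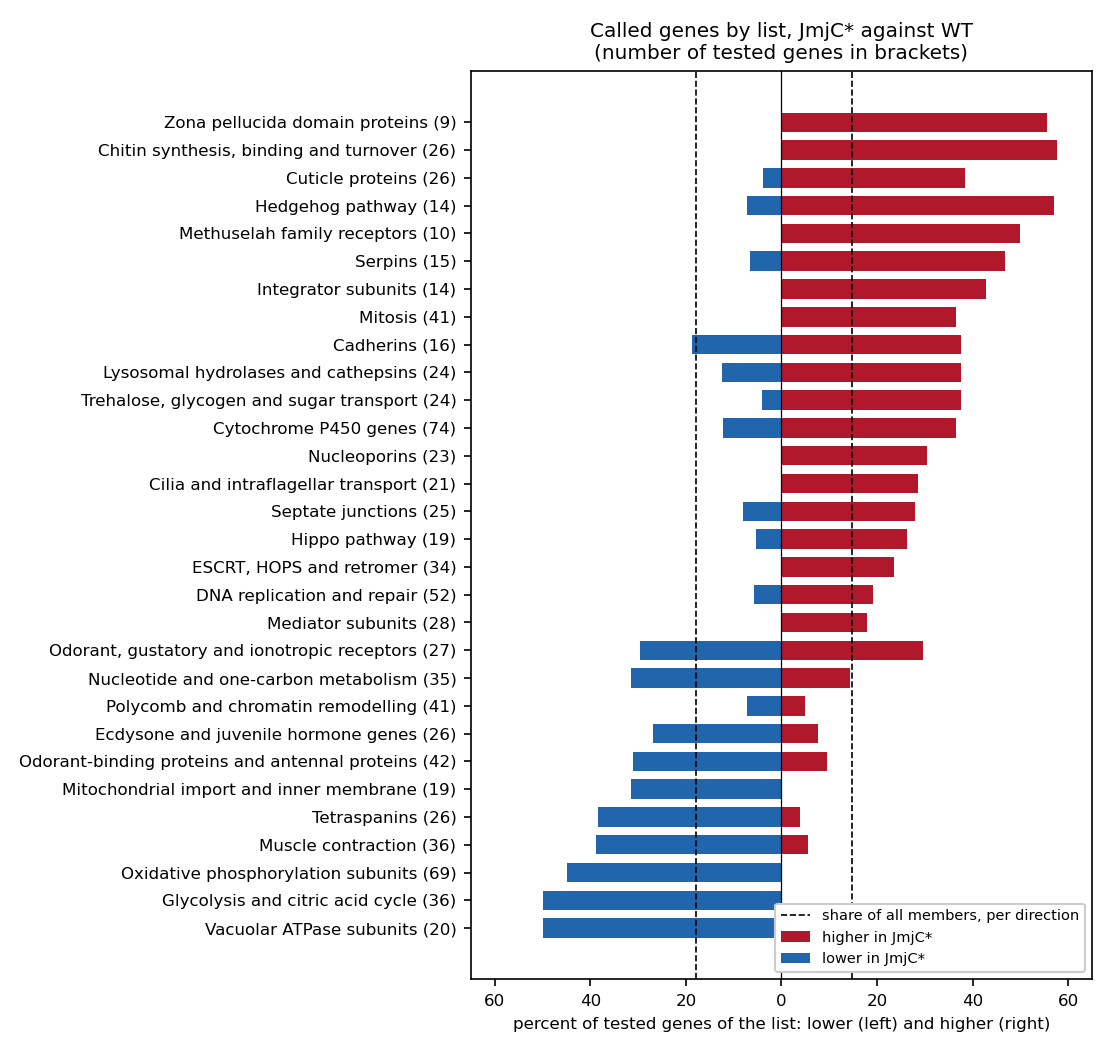
For 30 lists selected from the 73 outside the usual ones, bars show the percent of tested genes called higher (right, red) and lower (left, blue) in JmjC* against WT, with the shares over all members, 14.8% and 17.8%, as dashed lines. Of the lists shown, those of chitin, cuticle and zona pellucida proteins, mitosis, Integrator and nucleoporins reach to the right. Mediator (17.9%) lies near the right line, and Polycomb and remodelling genes (4.88%) fall short of it. Lists of energy metabolism, proton pumping and muscle reach to the left. Lists not shown include Osiris genes (0% higher), TFIID subunits (12.5%) and splicing factors (6.38%).

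Genes of chitin, the polymer of the body's outer layer, changed only upward among those called. Chitin is spun at the apical surface of epidermal cells and then modified by deacetylases and broken down by chitinases. Of 26 tested genes of chitin synthesis, binding and turnover 15 rose and 0 fell, and the median log2 fold change was 0.45, against -0.0099 over all members. Cht3, a chitinase now named Cht10 (FBgn0250907), was 4.96-fold higher in JmjC* in the authors' deposited table (log2 2.31 ± 0.18, adjusted p = 9.69e-37). The chitin synthase gene kkv rose by 1.49 ± 0.16 and the chitin deacetylase gene serp by 1.15 ± 0.10 on the log2 scale of the authors' deposited table. Cht2, another chitinase, rose by 0.86 ± 0.11 there. Genes of synthesis, modification and breakdown were all among those that rose. In A512P against WT, where 10.3% of members were higher and 12.8% lower, 16 genes of the list rose and 0 fell, and no gene of the list differed between the alleles past the threshold of that test.

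Cuticle proteins, which bind chitin or form the layer around it, mostly passed no minimum: 26 of the 128 in the table had a mean normalized count of at least 50, and these passed through whichever group was high. Of these 26, 10 rose and 1 fell in JmjC*, and 12 rose and 2 fell in A512P. Cpr76Bd was 6.70-fold higher, with a mean normalized count of 1251, in the authors' deposited table (log2 2.74 ± 0.13, adjusted p = 4.23e-89). Cpr66D rose by 2.22 ± 0.19, Cpr65Au by 1.91 ± 0.18 and Cpr76Bc by 1.47 ± 0.18 on the log2 scale of the authors' deposited table. The fall was that of TwdlG, of the Tweedle family of cuticle proteins, at -0.83 ± 0.12 on the same scale in the authors' deposited table. Of 14 zona pellucida domain proteins, which shape the apical matrix of epidermal cells in the fly embryo, 9 passed the minimum. Of these 9, 5 rose (55.6%, against 14.8% of all members) and 0 fell, with a median of 0.53, and in A512P 4 rose and 0 fell. One of the rises, cyr, had a mean normalized count of 84.5 and may have passed only through the groups where it is high. In that list fw and trn are adhesion proteins of other kinds. Here tyn rose by 1.44 ± 0.092 (adjusted p = 1.53e-52), zye by 1.67 ± 0.17, cyr by 1.12 ± 0.21 and pot by 0.53 ± 0.087 on the log2 scale of the authors' deposited table. The rise of tyn exceeded that in A512P, which was 0.71 ± 0.093, by 0.73 ± 0.13 on the log2 scale of the authors' deposited table (two-sided normal test, Benjamini-Hochberg adjusted p = 9.18e-06).

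Other epidermal families gave fewer rises. None of the 5 Osiris genes that passed the minimum rose, and Osi2, of this insect-specific membrane protein family, fell by 2.28 ± 0.14 on the log2 scale of the authors' deposited table, a 4.85-fold change. Among 17 genes of the yellow family and of cuticle tanning 4 rose and 2 fell. Pu, the GTP cyclohydrolase that starts pteridine synthesis, rose by 0.69 ± 0.085, yellow-e by 0.79 ± 0.14 and the tanning oxidase gene laccase2 by 0.48 ± 0.10 on the log2 scale, while Ddc, dopa decarboxylase, was lower at -0.49 ± 0.071 in the authors' deposited table.

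**Figure D3:**
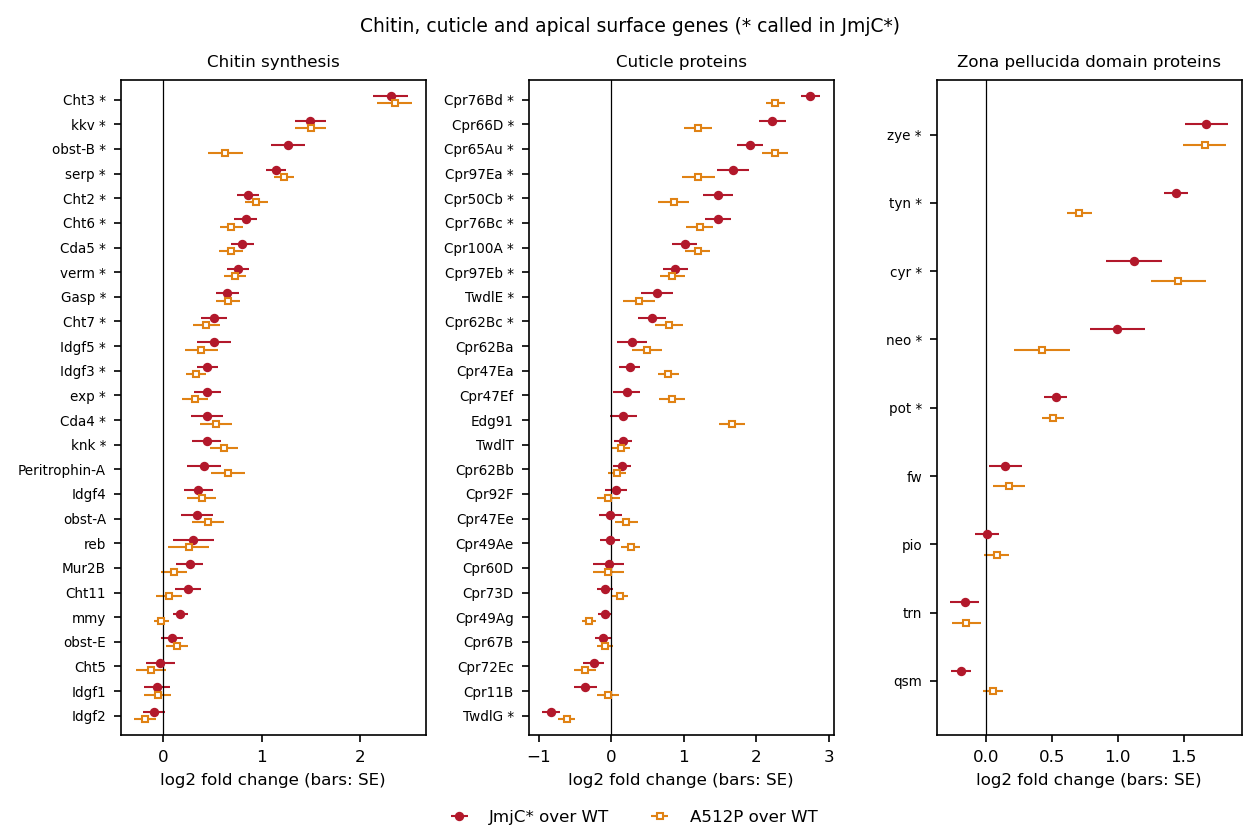
Log2 fold changes over WT with SE bars for JmjC* (red circles) and, below each, A512P (orange squares), for all tested genes of 3 lists; stars mark genes called in JmjC*. Most chitin genes lie right of 0 in both alleles, tyn lies farther right in JmjC*, and TwdlG lies left of 0.

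Mitosis genes that changed were all higher in JmjC*, many of them at low counts. Of 41 tested mitosis genes 15 rose and 0 fell, with a median of 0.24, and 22 of the 41 were in the lowest abundance quintile, where 19.8% of members rose. In A512P, where 10.3% of all members were higher, 13 genes of the list rose and 0 fell. The mean count spans all groups, so a gene close to the minimum, or with a large rise, may have passed it only through the groups where it is high. CycB, the mitotic cyclin B, was 10.2-fold higher, with a mean normalized count of 268, in the authors' deposited table (log2 3.35 ± 0.16, adjusted p = 4.23e-89). Klp61F, the kinesin that slides spindle poles apart, was 5.99-fold higher, with a mean normalized count of 63.8, in the authors' deposited table (log2 2.58 ± 0.22, adjusted p = 5.46e-30). Klp61F, with its mean count near the minimum, may be such a gene. So may CycB, which also rose by 2.95 ± 0.17 in A512P on the log2 scale of the authors' deposited table. The Klp61F locus overlaps galene on the opposite strand, and the sources used here do not state whether counting used strand. The cytokinesis gene scra, which encodes anillin, rose by 1.54 ± 0.14 and the centriole gene asl by 1.64 ± 0.16 on the log2 scale of the authors' deposited table. Other kinesins of the spindle rose as well, Klp67A by 1.35 ± 0.22 and nod by 1.13 ± 0.15 in the authors' deposited table; Klp67A too lies near the minimum and overlaps mRRF1 and CG34456 on the opposite strand.

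DNA replication and repair genes gave 10 rises and 3 falls among 52, and their median was 0.12. Of the 52, 31 lay in the lowest abundance quintile, and their 19.2% of rises stood near the 19.8% of that quintile. At an adjusted p under 0.01 there were 5 rises and 0 falls. RnrS, the small subunit of ribonucleotide reductase, rose by 1.16 ± 0.18 on the log2 scale of the authors' deposited table. The double-strand break genes rad50 and nbs, whose products act in 1 complex, rose by 0.46 ± 0.13 and 0.35 ± 0.11, and Gnf1, of the clamp loader, by 0.31 ± 0.087 in the authors' deposited table. In A512P 3 of these genes rose and 0 fell. Of 21 cilium genes 6 rose and 0 fell, at a median of 0.05, and 13 of the 21 lay in the lowest abundance quintile. They included the centriole gene Poc1, up by 1.25 ± 0.17, Dhc36C, a dynein heavy chain (0.67 ± 0.13), and cep290 of the ciliary transition zone (0.72 ± 0.16), on the log2 scale of the authors' deposited table. One dynein heavy chain went the other way: Dhc98D fell by 1.52 ± 0.19 in the authors' deposited table.

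Of complexes that work inside the nucleus, Integrator, nucleoporin and Mediator genes that changed were all higher, by small amounts. The Integrator complex cleaves nascent RNA and ends transcription by paused RNA polymerase. Of its 14 tested subunits 6 rose and 0 fell, all 14 had a positive value, and the median was 0.31. IntS2 rose by 0.82 ± 0.13 (adjusted p = 1.32e-08), defl, the seventh subunit, by 0.66 ± 0.12, IntS1 by 0.52 ± 0.097 and IntS11, the endonuclease, by 0.38 ± 0.090 on the log2 scale of the authors' deposited table. In A512P 3 of the 14 rose and 0 fell.

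Nucleoporins form the pores of the nuclear envelope. Of 23 tested 7 rose and 0 fell, at a median of 0.19, while in A512P 1 rose and 1 fell at a median of -0.01. At an adjusted p under 0.01, 4 nucleoporin genes rose in JmjC*. Nup107, of the outer ring, rose by 0.47 ± 0.10, Nup93-2 by 0.49 ± 0.12, mbo, the fly Nup88, by 0.37 ± 0.10 and Nup205 by 0.35 ± 0.11 on the log2 scale of the authors' deposited table. Mediator, which bridges activators and RNA polymerase II, gave 5 rises and 0 falls among 28 and a median of 0.16, with 24 positive values; in A512P 0 of 28 were called. Its 17.9% of rises lay near the 14.8% of all members, and at an adjusted p under 0.01 only 1 rise was left. Its scaffold subunit gene MED14 rose by 0.36 ± 0.087, MED17 by 0.36 ± 0.12, and kto, of the kinase module, by 0.31 ± 0.11 on the log2 scale of the authors' deposited table. For Integrator, nucleoporin and Mediator genes the difference between JmjC* and A512P passed its threshold for 0 genes, so the higher counts in JmjC* are not shown to set the alleles apart.

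**Figure D4:**
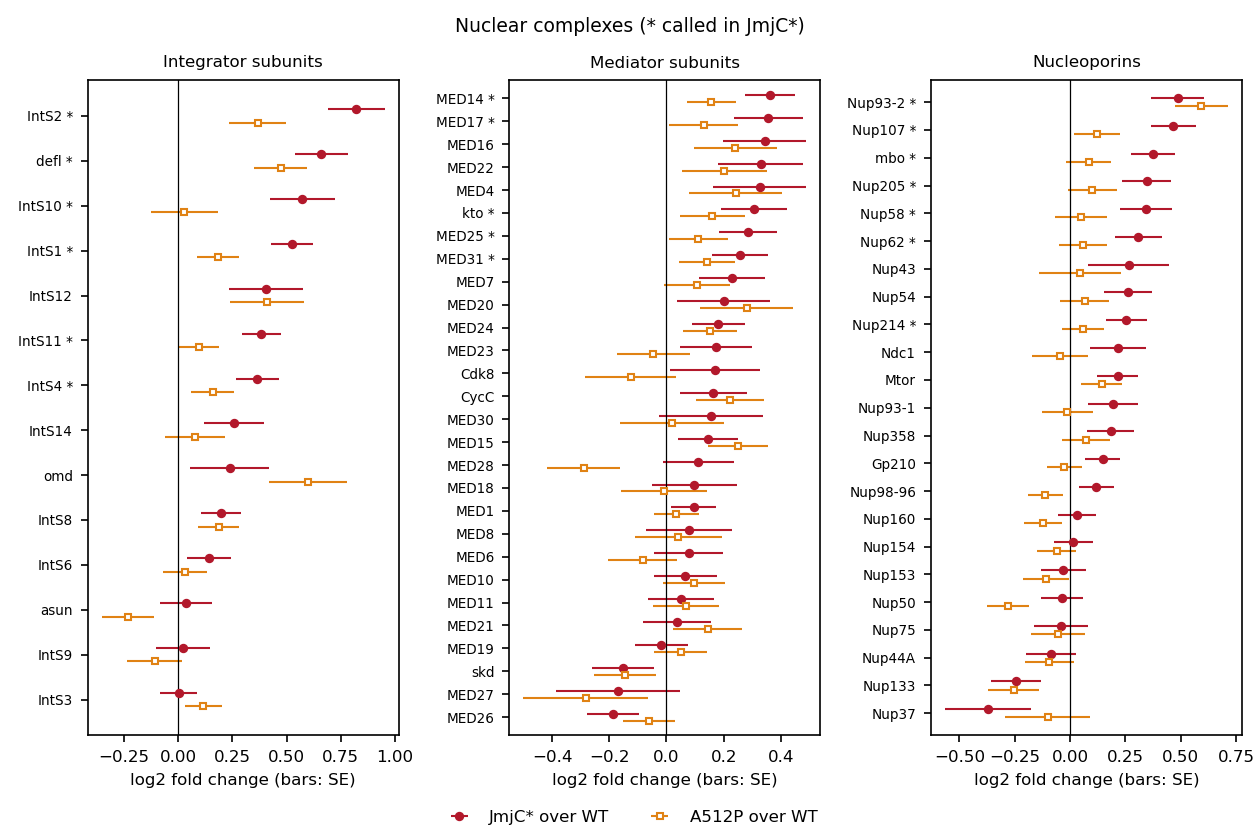
Log2 fold changes over WT with SE bars for JmjC* (red circles) and, below each, A512P (orange squares), for all tested subunits of 3 nuclear complexes; stars mark genes called in JmjC*. Every Integrator subunit lies right of 0 in JmjC*, from 0.00 to 0.82, and the A512P values scatter around 0 for many nucleoporins.

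Other chromatin genes moved little. Of 23 tested enzymes and partners that write or read methylation of histone H3 lysine 4, 5 rose and 1 fell, with values from -0.25 to 0.38. Lpt and Pa1, which work with the methyltransferase Trr, rose by 0.34 ± 0.083 and 0.38 ± 0.094, and ash2, a subunit shared by such methyltransferase complexes, by 0.30 ± 0.084, while the insulin-pathway factor foxo was lower at -0.25 ± 0.078, on the log2 scale of the authors' deposited table. Polycomb and remodelling genes gave 2 rises and 3 falls among 41, and no value beyond 0.32 on the log2 scale in either direction. TFIID subunits gave 2 rises and 0 falls among 16, and splicing factors 3 rises and 5 falls among 47. RNA polymerase subunits gave 3 rises and 1 fall among 15. These shares were 20% and 6.67%, against 14.8% and 17.8% of all members. The fall was that of RpI135, of the polymerase that makes ribosomal RNA, at -0.53 ± 0.13 on the log2 scale of the authors' deposited table. RpII140, of the polymerase that makes mRNA, rose by 0.34 ± 0.073, Rpb11 by 0.38 ± 0.11 and RpIII128 by 0.21 ± 0.084 in the authors' deposited table.

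Signalling genes varied by pathway. In the Hedgehog pathway, which patterns epithelia through a secreted ligand and its receptors, 8 of 14 tested genes rose and 1 fell, and the median was 0.34. The transcription factor gene ci rose by 0.52 ± 0.076, the glypican gene dlp by 0.52 ± 0.090 and the co-receptor gene ihog by 0.55 ± 0.12 on the log2 scale of the authors' deposited table. The fall was that of dally, the other glypican, at -0.59 ± 0.071 (adjusted p = 8.15e-15) in the authors' deposited table. The paralogues dlp and dally thus had opposite calls. In A512P 5 genes of the pathway rose and 1 fell.

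Notch pathway genes gave 4 rises and 0 falls among 25, at a median of 0.036. Their 16% of rises lay near the 14.8% of all members. Ser, a Notch ligand, rose by 0.93 ± 0.16, mib1, a ligase that activates the ligands, by 0.38 ± 0.086, and the secretase subunit genes Psn and nct by 0.42 ± 0.076 and 0.26 ± 0.079, on the log2 scale of the authors' deposited table. The Hippo list gave 5 rises (26.3%) and 1 fall (5.26%) among 19, against 14.8% and 17.8% of all members. The protocadherin genes ft (0.58 ± 0.13) and ds (0.40 ± 0.11) and the myosin gene d (0.87 ± 0.18) were higher in the authors' deposited table. There app, the palmitoyltransferase of the same branch, was lower at -0.55 ± 0.10. Wnt genes gave 2 rises and 1 fall among 30 and insulin and TOR genes 3 and 3 among 28. Of 16 methuselah family receptors, which are adhesion-type G protein-coupled receptors, 10 passed the minimum. Of these, 5 rose (50%, against 14.8% of all members) and 0 fell, and in A512P 4 rose and 0 fell. The lowest abundance quintile, where 19.8% of members rose, held 4 of the 10. The rises include mthl8, given with the A512P comparison, which may have passed the minimum only through JmjC*. The gene mth rose by 0.69 ± 0.096, mthl15 by 1.45 ± 0.22 and mthl10 by 0.48 ± 0.072 on the log2 scale of the authors' deposited table.

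Adhesion and matrix genes outside the neuronal list changed in both directions. The immunoglobulin-type surface families of neurons, most of which that list holds, were lower: by name stem, 13 of 13 beat genes, 20 of 21 dpr genes and 7 of 10 DIP genes fell and 1 DIP gene rose. Laminin chains, the core of basement membranes, were higher, LanA by 0.70 ± 0.094 and LanB1 by 0.53 ± 0.073, as was the integrin gene scb by 0.66 ± 0.11, on the log2 scale of the authors' deposited table; the matrix and integrin list gave 7 rises and 3 falls among 27. Of 25 septate junction genes, which seal epithelia and the glial barrier of the brain, 7 rose and 2 fell. The polarity gene l(2)gl rose by 0.62 ± 0.087 and Gli by 0.36 ± 0.094, whereas Atpalpha, the sodium pump subunit that serves neurons as well, was lower at -0.24 ± 0.076, on the log2 scale of the authors' deposited table. Among 16 cadherins 6 rose and 3 fell, with Cad99C up by 0.74 ± 0.085 and CadN2 at -0.56 ± 0.11 in the authors' deposited table. Tetraspanins, 4-pass membrane proteins, stood on the other side with 1 rise and 10 falls among 26, only 3 of which were in the most abundant quintile; in A512P the counts were 1 and 3, and at an adjusted p under 0.01 in JmjC* 6 fell. Tsp29Fb fell by 0.82 ± 0.12, Tsp97E by 0.34 ± 0.068 and Tsp47F by 0.72 ± 0.14, and Tsp42Ed rose by 0.67 ± 0.13, on the log2 scale of the authors' deposited table.

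Genes of energy metabolism that changed were lower in JmjC*, by small amounts. Of 69 tested nuclear subunits of oxidative phosphorylation 0 rose and 31 fell, all 69 had a negative value, and they ran from -0.50 to -0.07 with a median of -0.26. At an adjusted p under 0.01, 14 fell. In A512P 0 rose and 9 fell, at a median of -0.14. In JmjC* ATPsynbeta, a catalytic subunit of ATP synthase, fell by 0.50 ± 0.075 and ND-49, of complex I, by 0.42 ± 0.064 on the log2 scale of the authors' deposited table. SdhA, of succinate dehydrogenase, fell by 0.34 ± 0.063 in the authors' deposited table. Glycolysis and citric acid cycle genes gave 0 rises and 18 falls among 36, at a median of -0.27. The citrate synthase gene kdn fell by 0.50 ± 0.060 (adjusted p = 8.03e-15), the aconitase gene Acon by 0.51 ± 0.070 and Gpo-1, mitochondrial glycerol phosphate dehydrogenase, by 0.67 ± 0.092 on the log2 scale of the authors' deposited table.

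The mitochondrial carriers gave 0 rises and 6 falls among 15. They included sesB, the ADP/ATP translocase (-0.43 ± 0.065), and Mpc1, of the pyruvate carrier (-0.62 ± 0.12), on the log2 scale of the authors' deposited table. Import and inner membrane genes gave 0 rises and 6 falls among 19. Of 15 transcripts of the mitochondrial genome 0 rose and 2 fell, at a median of -0.32, and 4 had positive values, up to 0.48. Their 13.3% of falls lay below the 17.8% of all members, although 10 of the 15 were in the most abundant quintile. At an adjusted p under 0.01 only 1 fall was left. The transcript mt:lrRNA, the most abundant member of all, was lower at -0.54 ± 0.16 and mt:CoIII at -0.43 ± 0.17 on the log2 scale of the authors' deposited table. These lists are rich in abundant genes, with 37 of the 69 oxidative phosphorylation genes and 32 of the 36 glycolysis genes in the quintile where 30.1% of members fell. How much of their falls goes with abundance was not tested.

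Vacuolar ATPase, the proton pump that acidifies lysosomes and synaptic vesicles, resembled the mitochondrial lists with 0 rises and 10 falls among 20, of which 15 were in the most abundant quintile, where 30.1% of members fell. Vha68-1 and Vha55, catalytic-sector subunits, fell by 0.39 ± 0.064 and 0.32 ± 0.055 on the log2 scale of the authors' deposited table. Genes of the compartments that the pump acidifies rose more often than they fell. Lysosomal hydrolases gave 9 rises and 3 falls among 24, also with 12 in the most abundant quintile, and ESCRT, HOPS and retromer genes, which sort cargo to lysosomes, 8 rises and 0 falls among 34. Rises made up 37.5% and 23.5% of these lists, against 14.8% of all members. Falls made up 12.5% and 0%, against 17.8%. LManI, a lysosomal mannosidase, rose by 1.04 ± 0.16, Ppt2 by 0.66 ± 0.096 and the abundant saposin gene Sap-r by 0.27 ± 0.082, while Hexo1 was lower at -0.73 ± 0.11, on the log2 scale of the authors' deposited table. The tethering gene Vps39 rose by 0.44 ± 0.088 and the sorting nexin gene Snx1 by 0.36 ± 0.074 in the authors' deposited table. Blood cells are rich in lysosomes, and of the 5 blood cell markers Hml (0.63 ± 0.12), He (0.75 ± 0.23) and eater (0.86 ± 0.19) rose while NimC1 (0.10 ± 0.13) and Pxn (-0.08 ± 0.10) were not called, on the log2 scale of the authors' deposited table. Their part in the lysosomal result was not tested.

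Genes of sugar storage and transport mostly rose where they changed. Of 24 tested genes for trehalose, glycogen, starch digestion and sugar transport 9 rose and 1 fell, at a median of 0.23. Tret1-2, a trehalose transporter, was 3.72-fold higher in the authors' deposited table. The maltase gene Mal-B2 rose by 0.76 ± 0.10 and Tps1, which makes trehalose, by 0.36 ± 0.15 on the log2 scale of the authors' deposited table. The alpha-amylase genes Amy-d and Amy-p rose by 1.87 ± 0.18 and 1.75 ± 0.23, but they are near-identical copies whose reads may be shared, so their separate values in the authors' deposited table are uncertain. Amy-p is also the 1 gut marker that passed the minimum, and the part of gut tissue in the list's rises was not tested. Fatty acid genes gave 2 rises and 6 falls among 21. Their 28.6% of falls lay near the 30.1% of the most abundant quintile, which held 13 of them. AcCoAS was lower at -0.72 ± 0.14, the fatty acid synthase gene FASN1 at -0.62 ± 0.22 and the desaturase gene Desat1 at -0.35 ± 0.12 on the log2 scale of the authors' deposited table. FASN1 is also the 1 called gene of 4 fat body markers.

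Nucleotide and one-carbon genes gave 5 rises and 11 falls among 35, with Sam-S, which makes the methyl donor S-adenosylmethionine, lower at -0.58 ± 0.073 (adjusted p = 1.40e-13), the adenosine deaminase genes Adgf-A and Adgf-A2 at -0.61 ± 0.095 and -1.22 ± 0.20, and the purine synthesis gene ade2 higher at 0.71 ± 0.12, on the log2 scale of the authors' deposited table. Eye pigment genes gave 7 rises (25.9%) and 2 falls (7.41%) among 27, against 14.8% and 17.8% of all members. In the pteridine branch se rose by 0.98 ± 0.10 and Hn, phenylalanine hydroxylase, by 0.75 ± 0.14, and in the ommochrome branch cd was lower at -1.27 ± 0.16, on the log2 scale of the authors' deposited table.

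Cytochrome P450 genes, which oxidize hormones and foreign compounds, gave 27 rises and 9 falls among 74, at a median of 0.18. The name pattern also took Cpr, their reductase, which rose, and Cyp1, a cyclophilin. The family held the member with the largest fall, Cyp4s3, at -2.70 ± 0.21, as well as Cyp309a2, up by 1.62 ± 0.19, and Cyp4p2, up by 0.92 ± 0.13, on the log2 scale of the authors' deposited table. In A512P 18 rose and 5 fell, and Cyp4s3 was lower there too, at -2.88 ± 0.21 on the log2 scale of the authors' deposited table. Glutathione S-transferases gave 8 rises (24.2%) and 2 falls (6.06%) among 33, against 14.8% and 17.8% of all members. Of the 33, 9 lay in the lowest abundance quintile, where 19.8% of members rose. In A512P 12 rose and 2 fell. In JmjC* GstD2 was higher at 1.08 ± 0.15 and GstE4 lower at -0.71 ± 0.10 on the log2 scale of the authors' deposited table. Carboxylesterases gave 1 rise and 4 falls among 15, among them Est-6, an esterase also found in antennae, at -0.57 ± 0.15 in the authors' deposited table. Serpins, which inhibit serine proteases, gave 7 rises (46.7%) and 1 fall (6.67%) among 15, against the same shares of all members. The fall was that of Spn, which is spinophilin and no serpin. Spn88Eb rose by 1.16 ± 0.16 and Spn43Ad by 1.10 ± 0.16 on the log2 scale of the authors' deposited table.

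Heat shock proteins and chaperonins gave 3 rises and 4 falls among 29, a list that also took Cct1 and Cct2, which are enzymes of phospholipid synthesis. Hsp83, the fly Hsp90, was 1.88-fold higher and Hsc70-1 2.01-fold lower in the authors' deposited table. Hop, a partner of Hsp83, rose by 0.60 ± 0.15 and Hsp68 by 1.01 ± 0.14 on the log2 scale of the authors' deposited table. Proteasome subunits gave 2 rises and 0 falls among 32, and aminoacyl-tRNA synthetases 2 rises and 4 falls among 22. COP9 signalosome, cullin and neddylation genes gave 5 rises and 0 falls among 18, led by Uba3 at 0.64 ± 0.14 and CSN5 at 0.38 ± 0.086 in the authors' deposited table.

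Antennal protein genes that changed were mostly lower, and chemosensory receptor genes rose and fell in equal number. Of 42 odorant-binding and other antennal proteins 4 rose and 13 fell, with a5 at -1.94 ± 0.12 (adjusted p = 5.06e-52), Obp56e at -1.09 ± 0.18, lush at -0.91 ± 0.13 and Obp83a at -0.79 ± 0.12 on the log2 scale of the authors' deposited table. Orco, the co-receptor of most odorant receptors, fell by 0.56 ± 0.075 in the authors' deposited table, so all 3 antennal markers were lower. Of these markers lush and Obp83a are members of the list itself and Orco of the receptor list, so they are not separate from those counts. The part of antennal tissue in the list's falls was not tested. Of 186 odorant, gustatory and ionotropic receptor genes 27 passed the minimum, and 8 rose and 8 fell. Of the 27, 22 lay in the lowest abundance quintile, where 19.8% of members rose and 9.79% fell. Ir75a was lower at -1.84 ± 0.20 and Or59b at -0.98 ± 0.18 on the log2 scale of the authors' deposited table, and Ir21a, a receptor needed for cool sensing in the fly larva, was 1.99-fold higher there. Ir21a, with a mean normalized count of 68.5, lies near the minimum and overlaps CR43609 on the opposite strand.

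Muscle genes gave 2 rises and 14 falls among 36, which is 38.9% lower, and 26 were in the most abundant quintile, where 30.1% of members fell. Act79B, a muscle actin, fell by 1.20 ± 0.17 and the troponin C gene TpnC41C by 1.04 ± 0.16 on the log2 scale of the authors' deposited table. Of the 4 muscle markers Mlc2 (-0.25 ± 0.081) and wupA (-0.25 ± 0.070) fell, and Mhc (-0.23 ± 0.098) and Act88F (-0.55 ± 0.23) were not called, on the log2 scale of the authors' deposited table. Their part in the list's falls was not tested. Ecdysone and juvenile hormone genes gave 2 rises and 7 falls among 26. ImpE1, an ecdysone-inducible gene, rose by 1.51 ± 0.14, and Eip71CD fell by 0.82 ± 0.15 and the juvenile hormone epoxide hydrolase gene Jheh3 by 0.44 ± 0.11 on the log2 scale of the authors' deposited table. Homeodomain and patterning factors gave 3 rises and 8 falls among 42, with the eye gene ey higher at 0.35 ± 0.075 and dac lower at -0.40 ± 0.078 in the authors' deposited table.

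The largest single changes also included genes not described above. The rise of mthl8 is given with the A512P comparison. The gene roX1 encodes a long RNA that takes part in dosage compensation of the male X, and it was 18.4-fold higher in JmjC* in the authors' deposited table (log2 4.20 ± 0.11, adjusted p = 1.51e-300), with a mean normalized count of 6184. In A512P its log2 fold change was 3.77 ± 0.11 in the authors' deposited table; roX1 overlaps ec on the opposite strand, and the sex of the flies is not in the labels. CG13646 was 8.11-fold, CG14760 6.15-fold, CG13720 6.08-fold, CG5653 5.06-fold and CG18190 4.95-fold higher in the authors' deposited table. All were also called higher in A512P, with log2 fold changes there of 3.21, 2.29, 2.43, 1.78 and 2.39. CG14760, CG13720 and CG18190 lay close to the minimum and may have passed it only through the groups where they are high. The same holds for Pxd and CG14598, given next, with mean normalized counts of 63.6 and 77.7. Pxd, a peroxidase gene, was 4.66-fold, CG7130 4.42-fold, CBP 4.18-fold, CG11409 3.79-fold and CG14598 3.67-fold higher in the authors' deposited table. These too were called higher in A512P, with log2 fold changes there of 2.36, 2.10, 1.46, 1.83 and 1.87. On the opposite strand Pxd overlaps Adsl, CG18190 overlaps CG15084 and CBP overlaps CG1677, and their counts may be mixed. Pex7, a peroxisomal import receptor, rose by 1.85 ± 0.18 on the log2 scale of the authors' deposited table; it overlaps the abundant arrestin gene Arr2 on the opposite strand. The largest falls not described above were those of CG7906 (5.12-fold), CG40298 (4.74-fold), CG10357 (3.82-fold), CG33296 (3.54-fold) and the neuropeptide gene CNMa (3.24-fold) in the authors' deposited table. CG1628 (3.22-fold), CG13704, now named hoka (2.87-fold), CG14196 (2.76-fold), CG7900 (2.72-fold) and CG7879 (2.66-fold) followed, as did the neuropeptide gene AstC (2.66-fold), CG3348 (2.65-fold), CG13563 (2.64-fold) and CG12655 (2.59-fold), in the authors' deposited table. All of these genes except CG7900 were also called lower in A512P. Of the falls, CG7906, CG33296, CG7900 and AstC were larger in JmjC* than in A512P by the test of the difference, whose adjusted p-values were 2.15e-07, 0.0451, 0.00294 and 3.93e-10. Abundant genes outside the usual lists that rose included CG5210, now Idgf6 (0.56 ± 0.17), CG4716 (0.43 ± 0.14) and Ect4, the fly Sarm (0.27 ± 0.086), on the log2 scale of the authors' deposited table. Genes named only by CG numbers gave 572 rises (14.6%) and 643 falls (16.4%) among 3931, shares close to those of all members.

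Entries with CR numbers, non-coding or pseudogene, gave 56 rises (26.4%) and 34 falls (16%) among 212, and 147 of the 212 were in the lowest abundance quintile, where 19.8% of members rose. CR44030, an antisense RNA on chromosome 4, fell by 2.03 ± 0.19 on the log2 scale of the authors' deposited table; it lies opposite fuss, so its reads may be mixed with those of that gene.

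Among 9136 members with a position and a test, 124 runs of at least 3 neighbours in a row were called in the same direction, 42 higher and 82 lower, and they held 412 members. With 14.8% of members higher and 17.8% lower some such runs arise from those shares alone, and whether 124 exceeds that was not tested. The longest had 6 genes on 3L between positions 11169817 and 11206016 (BDGP6.54): CG7616, CG14142, GlcAT-P, Plod, CG7607 and CG14141 all fell, from -0.25 ± 0.089 for Plod to -0.62 ± 0.090 for GlcAT-P in the authors' deposited table. Plod overlaps CG7607 and CG14141 on the opposite strand, so these 3 calls may share reads. GlcAT-P is a glucuronyltransferase and Plod a lysyl hydroxylase of collagen. A run of 5 on 3R between 7909598 and 7924491 was higher, with Prat, of purine synthesis, at 0.49 ± 0.14, CG2846, riboflavin kinase, at 0.38 ± 0.10, CG2678, now kipf, at 0.99 ± 0.16, CG10445 at 1.16 ± 0.20 and lds at 0.55 ± 0.16 on the log2 scale of the authors' deposited table. Another run of 5 on 2R held 3 tetraspanins, Tsp42Eh (-0.30 ± 0.12), Tsp42Ei (-0.36 ± 0.12) and Tsp42Ej (-0.22 ± 0.083), together with CG33914 (-0.91 ± 0.096) and CR12842 (-0.69 ± 0.16), on the log2 scale of the authors' deposited table. CG33914 overlaps Tsp42Ei on the opposite strand. Runs of 5 that fell also held Men, CG5999, beat-Vc, CG31345 and beat-Va on 3R, and jv, CG8398, GluRIA, SP1173 and CG8519 on 3L.

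Direct differences between JmjC* and A512P were tested gene by gene. Both alleles were compared with the same WT libraries, so values are given side by side and the difference between the log2 fold changes was tested with an SE that is an upper bound. The difference passed an adjusted p of 0.05 for 82 members (0.882% of 9292), 31 with JmjC* higher and 51 with JmjC* lower, and 57 of the 82 were called in JmjC* against WT. With a correlation of 0.5 between the comparisons, which the shared WT libraries would give at equal spread, the count was 360. Of the 82, 35 lay on 3R, which holds 2299 of the 9292 members. The largest difference was that of mthl8 (FBgn0052475; 3L, 22428 to 26308, BDGP6.54, protein coding), a methuselah-like receptor gene at the left end of its arm, with a log2 fold change of 5.24 ± 0.21 in JmjC* and -0.09 ± 0.23 in A512P in the authors' deposited table. Cyp12c1, a mitochondrial P450, had 1.83 ± 0.16 in JmjC* and -0.19 ± 0.17 in A512P, and spz4, of the Spätzle ligand family, 2.78 ± 0.21 in JmjC* and 0.51 ± 0.22 in A512P, in the authors' deposited table. The glycosyltransferase gene tgy had 1.78 ± 0.23 in JmjC* and 0.15 ± 0.23 in A512P in the authors' deposited table. These rises were large in JmjC* and were not called in A512P. The mean normalized counts of mthl8 (196), spz4 (103) and tgy (57.4) span all groups. These genes may therefore have passed the minimum only through JmjC*.

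On the other side, the gap came mainly from A512P. St2, a sulfotransferase gene, had 0.78 ± 0.21 in JmjC* and 4.45 ± 0.21 in A512P, and CG6985 had 0.28 ± 0.18 in JmjC* and 2.97 ± 0.17 in A512P, in the authors' deposited table. The piRNA pathway gene qin had opposite calls, with -1.10 ± 0.16 in JmjC* and 2.11 ± 0.15 in A512P, as did CG16734 with -0.60 ± 0.18 in JmjC* and 2.66 ± 0.17 in A512P, in the authors' deposited table. CG30440 had 0.61 ± 0.13 in JmjC* and -1.10 ± 0.14 in A512P in the authors' deposited table, the reverse pair of calls. CR44030 was an exception on this side, with -2.03 ± 0.19 in JmjC* and -0.29 ± 0.18 in A512P in the authors' deposited table.

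**Figure D5:**
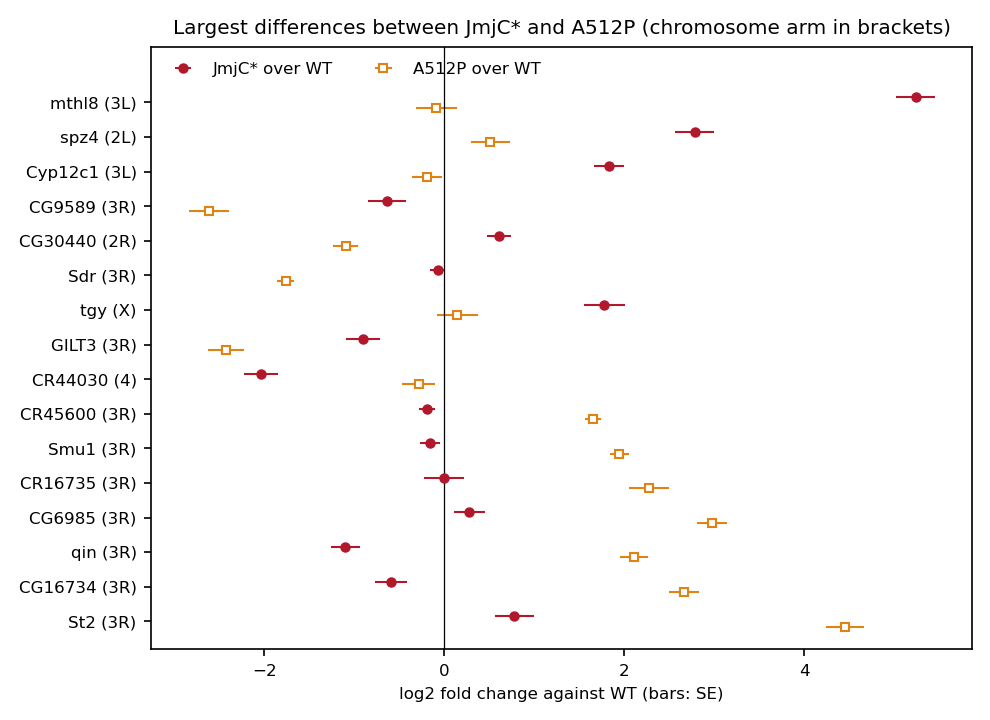
Log2 fold changes over WT with SE bars for JmjC* (red circles) and, below each, A512P (orange squares) for the 16 members with the largest differences, ordered from JmjC* higher (top) to A512P higher (bottom). For mthl8, spz4, Cyp12c1 and tgy the red point lies far from 0, and for the genes at the bottom the orange square does.

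The minimum of 50 cut through a region where calls were made on both sides. Just inside it, CR44230 (mean normalized count 50.1) was lower at -0.65 ± 0.21, while snoRNA:Psi18S-920 (-0.44 ± 0.21) and CG15497 (0.04 ± 0.22) were not called in the authors' deposited table. Just outside it, Sb (49.7) had a log2 fold change of 0.67 ± 0.21, CG12911 1.25 ± 0.21 and CG15332 -0.17 ± 0.23 in the authors' deposited table. In all, 402 of 2606 tested genes below the minimum were called.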

How the data were processed

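Input was the authors' own pair of result tables, JmjC* against WT and A512P against WT, each listing 17478 genes from 3 libraries per group; libraries were grouped by their titles. Per the labels' protocols, 500 ng of total RNA went into each stranded library, with 8 cycles of PCR and paired reads of 50 bases. The submitters' processing notes name STAR and DESeq2; their versions, the build, the annotation and strand use in counting were not given in the sources used here. Per the file headers, the deposited signal is baseMean, a mean normalized count, which was identical between tables for 17478 genes. A log2 fold change with its SE is deposited for each gene, per the file headers, and its direction (mutant over WT) follows the tables' names. The Wald statistic, the score deposited by the authors, matched log2 fold change over SE to within 9.59e-14. Each deposited p-value equalled a two-sided p from the normal distribution to within 2.83e-15, and the authors' adjusted p was used as it stood.

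Genes with a mean normalized count of at least 50 and an adjusted p under 0.05 were called; no count model was refitted, because the tables hold no values per library. The count minimum applies to a mean over the libraries, so a gene can pass through the group where it is high. The difference JmjC* minus A512P was divided by the root of the summed squared SEs and tested two-sided, with Benjamini-Hochberg adjustment over 11608 genes; this step was tested on simulated data. In all, 76 gene lists by symbol or name pattern, 3 of them the usual neuronal, ribosomal and immune lists, are described by counts and medians with no test; genes can stand in several lists. The members and lists were chosen with earlier results of these data known. Genes were named from the 20 largest rises and falls, up to 4 called genes with the smallest adjusted p per list, the 6 most abundant called per direction inside and outside the usual lists, the 5 longest runs, the 8 largest differences per direction, the markers, of which some are given by counts only, lid, and 3 genes on each side of the minimum; Cpr, Cyp1, Cct1, Cct2, fw, trn and, in the closing section, the genes under other observations were chosen after their values were seen. Positions and newer symbols are from Ensembl release 115 of BDGP6.54, where 9144 of 9300 member identifiers matched. Python 3.11.15, pandas 2.3.3, numpy 2.4.6 and scipy 1.17.1 were used. Alternatives were a stricter adjusted p, adjustment over every gene with a p-value, count minimums of 10 and 200, centring on the median member, a 1.5-fold minimum, and a correlation of 0.5 between the comparisons. No sequences are shown.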

Additional observations from a re-analysis of the deposited data

Results flagged for a closer look

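For 16 genes the log2 fold change against WT differed between JmjC* and A512P by a direct test of the difference, and these were the 8 largest differences in each direction among the 82 members past the threshold. JmjC* exceeded A512P by 5.32 for mthl8, 2.27 for spz4, 2.02 for Cyp12c1, 1.98 for CG9589, 1.71 for CG30440, 1.69 for Sdr, 1.63 for tgy and 1.52 for GILT3 on the log2 scale. The difference JmjC* minus A512P was -3.68 for St2, -3.26 for CG16734, -3.21 for qin, -2.70 for CG6985, -2.27 for CR16735, -2.10 for Smu1, -1.85 for CR45600 and -1.75 for CR44030 on the log2 scale. Their adjusted p-values ran from 3.79e-61 for mthl8 to 0.000161 for tgy (two-sided normal test, Benjamini-Hochberg adjustment over 11608 genes). For CG9589, Sdr and GILT3 the positive difference came with a lower value in A512P: the authors' deposited table gave -0.64, -0.07 and -0.90 in JmjC* and -2.62, -1.76 and -2.42 in A512P.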

How the results depend on the processing

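A 1.5-fold minimum left 481 genes higher and 336 lower in JmjC*, 8.79% of members, and made 58.9% of calls higher, against 45.4% without it. Taking the comparisons as correlated by 0.5 through their shared WT libraries gave 360 genes that differed between JmjC* and A512P, against 82; at an adjusted p of 0.01 there were 56. The counts against WT stayed within 1.5 times under the other alternatives: 994 higher and 1183 lower at an adjusted p of 0.01, 1316 and 1566 with adjustment over every gene with a p-value, 1625 and 1720 at a minimum count of 10, 1087 and 1522 at 200, and 1439 and 1573 after centring. Of 355 named genes, 34 lost their call at 0.01, 5 under the adjustment over every gene and 2 after centring. Their directions were not put to a test, since the adjusted p settings cannot change a sign and centring shifted values only by the median of -0.0099. Of 152 list counts, 46 moved by over 1.5 times at 0.01, 5 under that adjustment and 4 after centring. No paired analysis was possible because the tables hold no values per library. For the same reason leaving out single replicates and alternatives that need counts per library (another normalization, another count test) were not run. Depth per library, and with it the limit for weakly expressed genes, is unknown here.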

Other observations

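Further genes with small adjusted p-values, chosen after their values were seen, are not described above. The surface or secreted protein genes CG16885 and CG16884, now Vajk2 and Vajk3, lie near each other on 2L and rose by 1.80 ± 0.11 and 1.59 ± 0.14 on the log2 scale of the authors' deposited table; CG16885 overlaps Ance-3 on the opposite strand. The centriole gene Cp110 rose by 1.37 ± 0.096 and Rootletin, of the ciliary rootlet, by 1.07 ± 0.11 in the authors' deposited table. The gene of the small modifier SUMO, smt3, rose by 1.30 ± 0.10 in JmjC*, against 0.47 in A512P, in the authors' deposited table (difference adjusted p = 1.16e-05). Its neighbour Coprox, of haem synthesis, was higher in JmjC* than in A512P by 0.71 on the log2 scale of the authors' deposited table (difference adjusted p = 0.0381). Among abundant genes, path, an amino acid transporter, fell by 0.89 ± 0.066 and retinin, a protein of the corneal lens, by 0.73 ± 0.084 on the log2 scale of the authors' deposited table.

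At 1 locus on 2R overlapping genes had opposite calls: ppk29, a sodium channel subunit gene, rose by 1.53 ± 0.15 and CG13563, which overlaps it on the other strand, fell by 1.40 ± 0.15 on the log2 scale of the authors' deposited table. The sources used here do not state whether counting used strand, so the values of such pairs are uncertain.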
